A study of Homo sapiens with 6 samples.

Results

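A set of 54 genes that act in mitosis and at the kinetochore was followed in HCT116, an established cell line from a human colorectal carcinoma, with and without overexpression of the small nucleolar RNA SNORA28. The 54 genes were chosen by name for their roles in cell division, with earlier results of these data known. All 54 were found among the 60612 genes listed in the deposited tables. They comprised 9 genes of the CDK1 engine, 5 of the Aurora and Polo kinases with their passenger partners, 8 of the spindle checkpoint and the onset of anaphase, 12 of the centromere and kinetochore, 11 of the spindle, 2 of cytokinesis and 7 of chromosome structure.

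RNA was sequenced in 6 libraries, 3 from cells that had received the negative control lentivirus LV-NC and 3 from cells given LV-SNORA28, which carries SNORA28, an H/ACA-class RNA. The study asked which transcripts change when SNORA28 is overexpressed. Both groups carried a lentivirus, with the GV235 vector named in the study's methods, and no uninfected cells were sequenced. All libraries came from 1 cell line, and nothing in the labels says that the replicates were separate cultures, so the p-values measure the spread between libraries, which may be technical. Messenger RNA was captured by oligo(dT), and the values are FPKM, fragments scaled to transcript length and library total, which allows levels to be compared between genes.

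Entry into mitosis is driven by CDK1 bound to cyclin B, which CDC25 phosphatases switch on. Kinetochores, protein assemblies built on centromeres, then capture spindle microtubules, and the spindle assembly checkpoint holds back the anaphase-promoting complex until every chromosome is attached. The transcripts of these genes accumulate in late S phase, G2 and mitosis, largely through the transcription factors B-MYB and FOXM1 and the DREAM repressor complex, and as a group they are widely used as a readout of proliferation in tumour tissue.

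SNORA28 was listed at 0.92, 0 and 0.64 FPKM for LV-NC against 15.0, 13.7 and 15.2 FPKM for LV-SNORA28, higher in every LV-SNORA28 library. Because RNA was captured by oligo(dT), these values need not give the level of the mature snoRNA, which was not tested here. The study measured the overexpression by RT-qPCR. The FPKM sum ran from 306048 to 374676 per library and 11664 to 12259 genes reached 1 FPKM, while the read depth is unknown because the tables hold no counts. Mitochondrially encoded transcripts took 44.4% ± 2.83 (SD, n = 3) of the FPKM sum for LV-NC against 37.3% ± 1.25 (SD, n = 3) for LV-SNORA28. Of the epithelial markers, EPCAM ran from 96.9 to 115 FPKM and KRT19 from 358 to 412 FPKM, whereas VIL1, LGALS4 and CEACAM5 stayed at or under 0.10 FPKM in every library. The blood markers PTPRC, CD3E and LYZ reached at most 0.16 FPKM, and of the stromal markers COL1A1 lay between 3.16 and 4.46 FPKM while COL1A2 was at 0 in all libraries.

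Many of these genes share a short promoter element, the cell cycle genes homology region (CHR), through which the DREAM and B-MYB complexes act. The letters TTTGAA or TTCGAA were searched on both strands, so that TTCAAA also counted, in the RefSeq promoter windows of 250 bases before to 50 bases after each start (GRCh38.p14). A gene with several annotated starts counted if any of its windows held the letters. Of the 54 genes, 47 had a window (AURKA, BUB3, CENPH, FOXM1, KNL1, TPX2 and TTK did not), and 36 of the 47 (76.6%) held the letters, against 19.5% of all 27305 genes with a window and 14.4% of the genes tested here that had one. In the last 50 bases before the start the share was 42.6% (20 of 47), against 3.06% of all genes with a window. The letters CCAAT, on either strand as CCAAT or ATTGG and counted also where they touched the CHR letters, stood in 78.7% of the 47 and in 39.7% of all genes with a window. The last 50 bases before the start are printed for 8 of the 20, 5 that rose after SNORA28 (CDK1, CCNB2, CDC25B, CKS2 and PRC1) and 3 that did not pass the test (CKS1B, PLK1 and MKI67), with the CHR letters in capitals. For CDK1 and CDC25B, which have several annotated starts, 1 window is printed. The stretches are CDK1 (chr10:60778428-60778477, plus strand), CCNB2 (chr15:59105096-59105145, plus strand), CDC25B (chr20:3796260-3796309, plus strand), CKS2 (chr9:89311145-89311194, plus strand), CKS1B (chr1:154974631-154974680, plus strand), PLK1 (chr16:23678839-23678888, plus strand), PRC1 (chr15:90994536-90994585, minus strand) and MKI67 (chr10:128126424-128126473, minus strand).
CDK1: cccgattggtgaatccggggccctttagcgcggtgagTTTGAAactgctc
CCNB2: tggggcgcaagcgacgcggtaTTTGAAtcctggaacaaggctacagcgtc
CDC25B: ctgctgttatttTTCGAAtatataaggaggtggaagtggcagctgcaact
CKS2: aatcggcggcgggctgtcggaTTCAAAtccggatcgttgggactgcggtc
CKS1B: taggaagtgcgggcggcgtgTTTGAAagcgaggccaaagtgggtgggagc
PLK1: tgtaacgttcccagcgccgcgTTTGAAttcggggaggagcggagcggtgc
PRC1: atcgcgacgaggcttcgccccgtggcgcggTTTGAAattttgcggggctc
MKI67: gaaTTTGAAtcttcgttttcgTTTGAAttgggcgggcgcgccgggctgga

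In the 8 promoters the letters nearest to the start began between 13 bases before it, in CDK1, and 38 bases before it, in CDC25B, and MKI67 held them at 29 and again at 47 bases before the start. The share of genes with the letters was about the same among genes called higher and among those that did not pass the test. Of the 17 genes with a window that were called higher, 13 (76.5%) held the letters, and of the 30 that did not pass the test, 23 (76.7%) held them. Since 53 of the 54 genes had a fold change above 0, this does not compare genes that rose with genes that did not. The median log2 fold change was 0.25 over the 20 genes with the letters in the last 50 bases and 0.32 over the 27 without. A match of letters is a description of the window and says nothing of whether a factor was bound. Of the 89 other mitotic genes compared below, 76 had a window. The CHR letters stood in 39 of the 76 (51.3%), in the last 50 bases in 7 (9.21%), and the CCAAT letters in 57.9%. Among the 41 DNA replication genes with a window, 2 (4.88%) held the CHR letters, 0 in the last 50 bases, and 63.4% held the CCAAT letters.

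SNORA28 overexpression was accompanied by higher levels of a share of the mitotic transcripts and by lower levels of none that passed the test. All 54 genes had a mean of at least 1 FPKM and entered the limma fit of 12076 genes. With an adjusted p below 0.05 in limma, 19 of the 54 (35.2%) were higher in LV-SNORA28, against a background of 6.81% of all genes tested, and 0 were lower, against 2.10%. At an unadjusted p below 0.05 there were 36 of the 54 (66.7%), all higher, against a background of 22.0% higher and 6.08% lower. The fold change lay above 0 in 53 of the 54 (98.1%), with FOXM1 as the exception, against 66.7% of all genes tested. The median log2 fold change was 0.28, against 0.09 over all genes tested. Every log2 fold change given here was taken after 1 was added to each FPKM value, so weakly expressed genes appear to change less than they did. The values of the 3 LV-SNORA28 libraries all lay above those of the 3 LV-NC libraries in 38 of the 54 (70.4%), against a background of 27.0%, and all lay below in none. The changes were small, and 3 of the 54 (5.56%), PRC1, NUSAP1 and TOP2A, reached the study's threshold of a fold change above 1.5 at an unadjusted p below 0.05, against a background of 2.58% of genes that passed it upwards. In either direction the background was 3.79%. This fold change, too, was taken after 1 was added. With 0.1 added instead, NUF2 passed as well, which made 4 of the 54 (7.41%), against 6.38% of all genes in either direction. In bulk RNA, more cells in G2 and mitosis and more RNA of these genes per cell cannot be told apart.

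**Figure D1:**
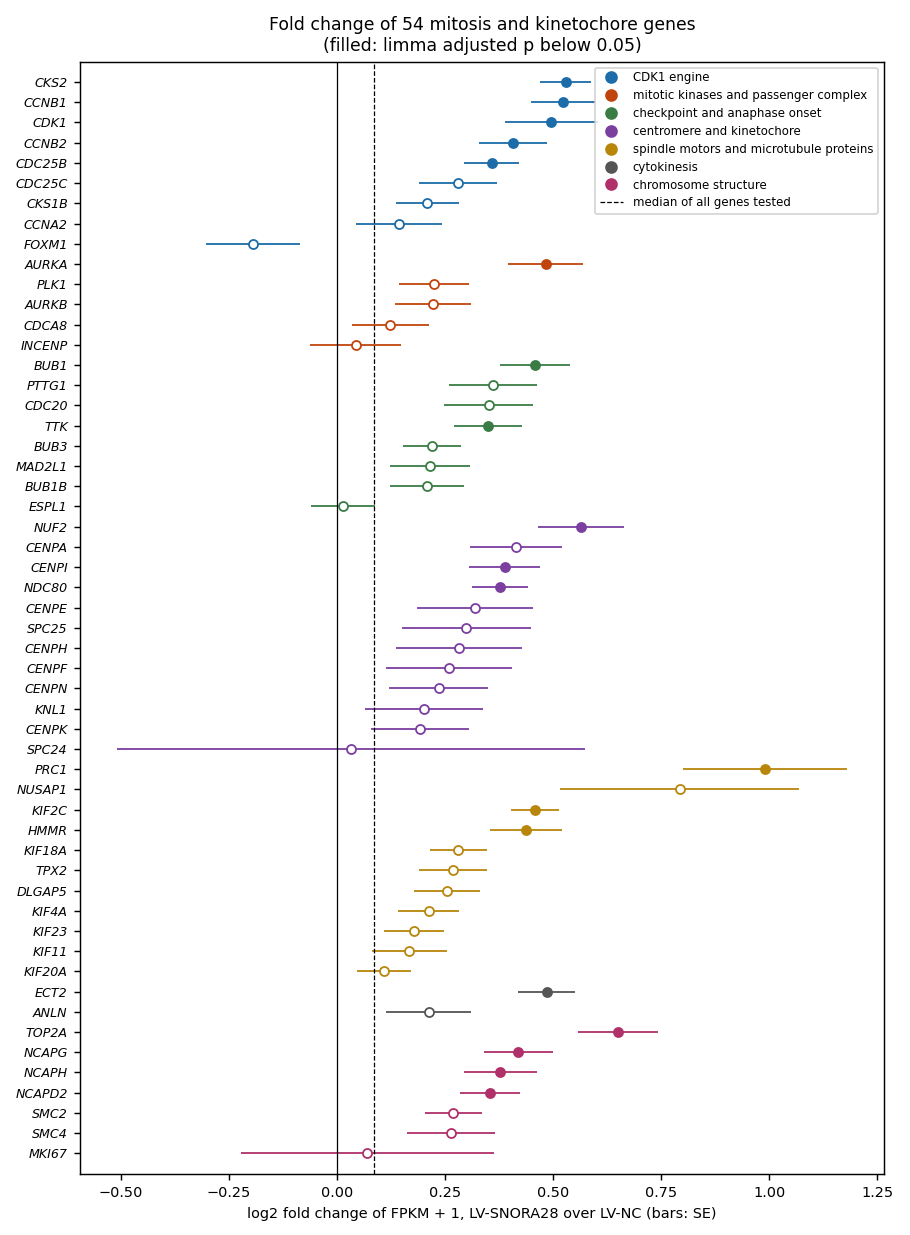
Log2 fold change of FPKM + 1 (LV-SNORA28 over LV-NC, 3 libraries each) on the x axis for each of the 54 genes, grouped and coloured by role, with bars for the SE from limma, filled points for an adjusted p below 0.05 and a dashed line at the median of all genes tested, 0.09. Of the 54 points 53 lie to the right of 0, 19 are filled, and SPC24, MKI67 and NUSAP1 have the widest bars.

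**Figure D2:**
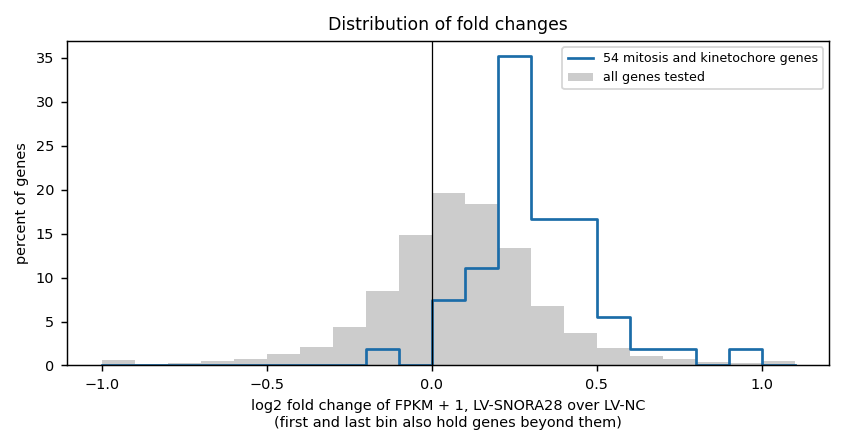
Percent of genes (y axis) in bins of log2 fold change of 0.1 (x axis), for the 12076 genes tested (grey bars) and the 54 mitosis and kinetochore genes (blue line). The tallest bin of the 54 genes, with 35.2% of them, runs from 0.2 to 0.3, and the tallest bin of all genes, with 19.6%, runs from 0 to 0.1.

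The count of 19 fell in every fit with 1 library left out and with the GC trend removed. The background of genes called higher fell as well in each fit with 1 library left out. The count was 7 without LV-NC replicate 1 (background 4.08%), 7 without LV-NC replicate 2 (3.09%) and 11 without LV-NC replicate 3 (2.70%). It was 11 without LV-SNORA28 replicate 1 (2.78%), 3 without LV-SNORA28 replicate 2 (1.56%) and 4 without LV-SNORA28 replicate 3 (1.77%). The transcripts of the 54 genes had a median GC content of 42.1%, against 49.1% over all genes tested, and with the GC trend of each library removed 6 genes were called against a background of 3.00%, with a median log2 fold change of 0.16 against -0.0042 over all genes.

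Per library, the sum over the 54 genes was 1065, 1103 and 1181 FPKM for LV-NC against 1364, 1460 and 1444 FPKM for LV-SNORA28. The lowest LV-SNORA28 library thus lay above the highest LV-NC library. Relative to the LV-NC mean of each gene on the log2 scale, the median gene stood at -0.07, 0.0047 and 0.09 for LV-NC and at 0.23, 0.32 and 0.35 for LV-SNORA28. Within groups, 39 of 54 genes lay below the mean of the other 2 LV-NC libraries in LV-NC replicate 1, and 47 of 54 lay above it in LV-NC replicate 3. In LV-SNORA28 replicate 1, 43 of 54 lay below the mean of the other 2 LV-SNORA28 libraries. Scaling every library to its nuclear FPKM sum, which takes out the difference in the mitochondrial share, left 16 genes called higher, against a background of 5.09%, and a median log2 fold change of 0.26, against 0.06 over all genes.

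Within the CDK1 engine, 5 of 9 genes rose (CDK1, CCNB1, CCNB2, CDC25B and CKS2), 0 fell and 4 did not pass the test. The background for this and each role below is the 6.81% of all genes tested that were called higher. CDK1 (ENSG00000170312, chr10:60778331-60794852), the kinase that drives entry into mitosis, was at 15.1, 17.5 and 17.8 FPKM for LV-NC against 21.1, 27.0 and 24.2 FPKM for LV-SNORA28. Coordinates are those of GENCODE on GRCh38. On the log2 scale CDK1 rose by 0.50 ± 0.11 (SE), at a limma adjusted p of 0.0396, and the groups did not overlap. CCNB1 (ENSG00000134057, chr5:69167135-69178245), its main cyclin partner, was at 45.9, 53.9 and 53.2 FPKM for LV-NC, where replicate 1 was lowest, against 73.1, 74.3 and 73.2 FPKM for LV-SNORA28. The 3 LV-SNORA28 values of CCNB1 were nearly equal, and the log2 fold change was 0.52 ± 0.074 (SE) at a limma adjusted p of 0.0128. CCNB2, the second B-type cyclin, was at 21.6, 22.9 and 25.6 FPKM for LV-NC against 29.8, 32.7 and 31.4 FPKM for LV-SNORA28, a log2 fold change of 0.41 ± 0.079 (SE) at a limma adjusted p of 0.0300. CDC25B, a phosphatase that removes the inhibitory phosphates of CDK1, was measured at 32.1, 31.9 and 29.4 FPKM for LV-NC against 39.8, 41.9 and 38.7 FPKM for LV-SNORA28. It differed by 0.36 ± 0.063 (SE) on the log2 scale with a limma adjusted p of 0.0236, and every LV-SNORA28 library lay above every LV-NC library for both CCNB2 and CDC25B.

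CKS2 and CKS1B encode the pair of small adaptor proteins that bind cyclin-dependent kinases and help them to act on substrates already phosphorylated. CKS2 (ENSG00000123975, chr9:89311195-89316703) had the highest level of the 54 genes, at 98.8, 103 and 103 FPKM for LV-NC against 146, 155 and 140.5 FPKM for LV-SNORA28. It rose by 0.53 ± 0.059 (SE) on the log2 scale, with the lowest adjusted p of the 54 genes, 0.00696 in limma. CKS1B was at 40.3, 39.2 and 45.6 FPKM for LV-NC against 46.5, 49.6 and 48.7 FPKM for LV-SNORA28, without overlap between the groups, and with 0.21 ± 0.073 (SE) on the log2 scale it missed the test (limma adjusted p 0.123). The ratio of CKS2 to CKS1B was 2.45 ± 0.175 (SD, n = 3) for LV-NC against 3.05 ± 0.142 (SD, n = 3) for LV-SNORA28, with no overlap and an exact two-sided permutation p of 0.1, the smallest that 3 against 3 libraries allow. The ratios thus stood apart in every library, at the limit of what such a test can show. This was 1 of 6 ratios computed, most of them chosen after the values were seen, and its p adjusted over the 6 by the Benjamini-Hochberg method was 0.2.

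The A-type cyclin CCNA2, which acts in S phase and early mitosis, was at 28.3, 32.7 and 33.8 FPKM for LV-NC against 31.3, 38.0 and 35.9 FPKM for LV-SNORA28, with overlapping groups (log2 fold change 0.14, limma adjusted p 0.394). The ratio of CCNB1 to CCNA2 was 1.61 ± 0.0365 (SD, n = 3) for LV-NC against 2.11 ± 0.201 (SD, n = 3) for LV-SNORA28, again without overlap (exact permutation p 0.1, adjusted over the 6 ratios 0.2). CDC25C, a second phosphatase of CDK1, was at 4.71, 3.96 and 4.49 FPKM for LV-NC against 5.24, 6.12 and 5.25 FPKM for LV-SNORA28, and its log2 fold change was 0.28 at a limma adjusted p of 0.105. The ratio of CDC25B to CDC25C overlapped between the groups, at 7.13 ± 0.804 (SD, n = 3) and 7.27 ± 0.387 (SD, n = 3). FOXM1, the transcription factor that drives many of these genes, was the only one of the 54 with a fold change below 0. The values were 16.5, 14.3 and 14.5 FPKM for LV-NC against 11.2, 14.5 and 13.6 FPKM for LV-SNORA28. Replicates 1 and 3 of LV-SNORA28 lay below all 3 LV-NC libraries and replicate 2 lay within their range, and the test was not passed, with a log2 fold change of -0.19 ± 0.11 (SE) at a limma adjusted p of 0.30. The log2 fold change of FOXM1 was -0.28 under quantile normalization (limma adjusted p 0.162) and -0.24 with the GC trend removed (0.248). With the length trend removed it was -0.29 (0.136), and with 1 library left out it ran from -0.27 to -0.09.

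Of the Aurora and Polo kinases and the passenger complex, 1 of 5 genes rose (AURKA), 0 fell and 4 did not pass the test. AURKA, the Aurora kinase of centrosomes and spindle poles, was at 16.2, 16.4 and 18.6 FPKM for LV-NC against 22.0, 25.6 and 25.2 FPKM for LV-SNORA28. AURKA differed by 0.48 ± 0.087 (SE) on the log2 scale, the groups did not overlap and the adjusted p was 0.0247 in limma. AURKB, the Aurora kinase of the passenger complex at centromeres, was at 18.1, 20.8 and 22.1 FPKM for LV-NC against 24.7, 24.5 and 22.3 FPKM for LV-SNORA28, with a log2 fold change of 0.22 ± 0.088 (SE) at a limma adjusted p of 0.159. The ratio of AURKA to AURKB overlapped between the groups, at 0.841 ± 0.0515 (SD, n = 3) and 1.02 ± 0.12 (SD, n = 3), with an exact permutation p of 0.2. PLK1, the Polo kinase, was at 19.3, 22.6 and 23.0 FPKM for LV-NC against 24.5, 26.2 and 25.3 FPKM for LV-SNORA28, with a log2 fold change of 0.22 at a limma adjusted p of 0.132. The 2 non-kinase passenger proteins among the 5 had the smallest fold changes of the 5, 0.12 for CDCA8 (borealin) and 0.04 for INCENP, and their groups overlapped. BIRC5 (survivin), another non-kinase subunit of that complex, is listed among the other mitotic genes compared below. It was at 6.70, 4.63 and 7.94 FPKM for LV-NC against 9.90, 11.4 and 12.1 FPKM for LV-SNORA28, without overlap. Its log2 fold change was 0.73 ± 0.17 (SE) at a limma adjusted p of 0.0510, so it missed the test. At an unadjusted p of 0.00468 in limma it passed the study's threshold, as 1 of the 89 (1.12%), against 3.79% of all genes tested. By qRT-PCR, the study reported that SNORA28 positively regulates survivin. CDCA8, the most abundant gene of the 5, was at 23.7, 28.4 and 28.8 FPKM for LV-NC against 29.0, 31.0 and 28.1 FPKM for LV-SNORA28.

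In the spindle checkpoint and at anaphase onset, 2 of 8 genes rose (BUB1 and TTK), 0 fell and 6 did not pass the test. All LV-SNORA28 values lay above all LV-NC values in 7 of the 8 (87.5%), against 27.0% of all genes tested. BUB1, the checkpoint kinase that marks centromeric chromatin, was at 13.1, 14.0 and 15.2 FPKM for LV-NC against 18.5, 19.5 and 21.1 FPKM for LV-SNORA28, a log2 fold change of 0.46 ± 0.080 (SE) at a limma adjusted p of 0.0233. TTK, also known as MPS1, starts checkpoint signalling at unattached kinetochores and was measured at 9.70, 10.2 and 11.3 FPKM for LV-NC against 12.6, 13.8 and 14.0 FPKM for LV-SNORA28. The log2 fold change of TTK, 0.35 ± 0.079 (SE), was just inside the threshold, at a limma adjusted p of 0.0445. CDC20, the activator of the anaphase-promoting complex that the checkpoint holds back, was the most abundant of the 8, at 75.7, 92.3 and 97.6 FPKM for LV-NC against 116, 115 and 107 FPKM for LV-SNORA28. The log2 fold change of CDC20 was 0.35 ± 0.10 (SE) and its limma adjusted p 0.0840, with LV-NC replicate 1 as the lowest library. PTTG1 (securin), the inhibitor of separase, had a log2 fold change of 0.36 at a limma adjusted p of 0.0769. The checkpoint proteins BUB3, MAD2L1 and BUB1B lay between 0.21 and 0.22 with adjusted p from 0.0926 to 0.186 in limma. ESPL1 (separase), the protease that cuts cohesin, was at 7.85, 7.86 and 9.10 FPKM for LV-NC against 8.36, 8.23 and 8.43 FPKM for LV-SNORA28, with overlapping groups and a log2 fold change of 0.01.

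Of the 12 centromere and kinetochore genes, 3 rose (NUF2, NDC80 and CENPI), 0 fell and 9 did not pass the test. NDC80 and NUF2 form one arm of the NDC80 complex, the part of the kinetochore that grips microtubules, and SPC24 and SPC25 form the other arm, which anchors it. NUF2 was at 6.08, 7.00 and 6.52 FPKM for LV-NC against 8.91, 10.2 and 11.4 FPKM for LV-SNORA28, a log2 fold change of 0.56 ± 0.10 (SE) at a limma adjusted p of 0.0239. NDC80 was at 9.34, 10.5 and 10.1 FPKM for LV-NC against 13.01, 13.2 and 13.4 FPKM for LV-SNORA28, a log2 fold change of 0.38 ± 0.064 (SE) at a limma adjusted p of 0.0218. Both genes were higher in every LV-SNORA28 library than in any LV-NC library. SPC25 was at 7.31, 9.75 and 10.96 FPKM for LV-NC against 10.2, 12.6 and 12.1 FPKM for LV-SNORA28, where LV-NC replicate 1 was the lowest library and LV-SNORA28 replicate 1 lay within the LV-NC range, and its log2 fold change was 0.30 ± 0.15 (SE) at a limma adjusted p of 0.248. SPC24 differed more between libraries than between groups, at 5.35, 5.62 and 1.42 FPKM for LV-NC against 5.24, 6.26 and 1.40 FPKM for LV-SNORA28. Replicate 3 was low in both groups, and the log2 fold change was 0.03 ± 0.54 (SE) at a limma adjusted p of 0.976. It was -0.44 without LV-NC replicate 3 and 0.53 without LV-SNORA28 replicate 3.

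CENPI, a subunit of the inner kinetochore network, was low, at 1.81, 1.77 and 1.48 FPKM for LV-NC against 2.51, 2.58 and 2.44 FPKM for LV-SNORA28, and its log2 fold change was 0.39 ± 0.082 (SE) at a limma adjusted p of 0.0378. CENPA, the histone H3 variant that marks the centromere, was at 4.43, 5.02 and 5.28 FPKM for LV-NC against 6.31, 7.97 and 6.39 FPKM for LV-SNORA28. Its groups did not overlap, and the test was missed, with a log2 fold change of 0.41 ± 0.11 (SE) at a limma adjusted p of 0.0611. CENPH, a partner of CENPI in the inner kinetochore, was at 2.60, 2.83 and 3.39 FPKM for LV-NC against 2.90, 4.34 and 4.22 FPKM for LV-SNORA28, with LV-SNORA28 replicate 1 inside the LV-NC range. CENPK and CENPN, of the same network, had log2 fold changes of 0.19 and 0.24 with overlapping groups. The large outer proteins CENPE, a microtubule motor, CENPF and KNL1 had log2 fold changes of 0.32, 0.26 and 0.20, none past the test. CENPF, the most abundant of the 12, was at 20.5, 14.8 and 19.3 FPKM for LV-NC against 20.7, 19.6 and 25.5 FPKM for LV-SNORA28. Replicate 2 was the lowest LV-NC library for CENPE, CENPF and KNL1.

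**Figure D3:**
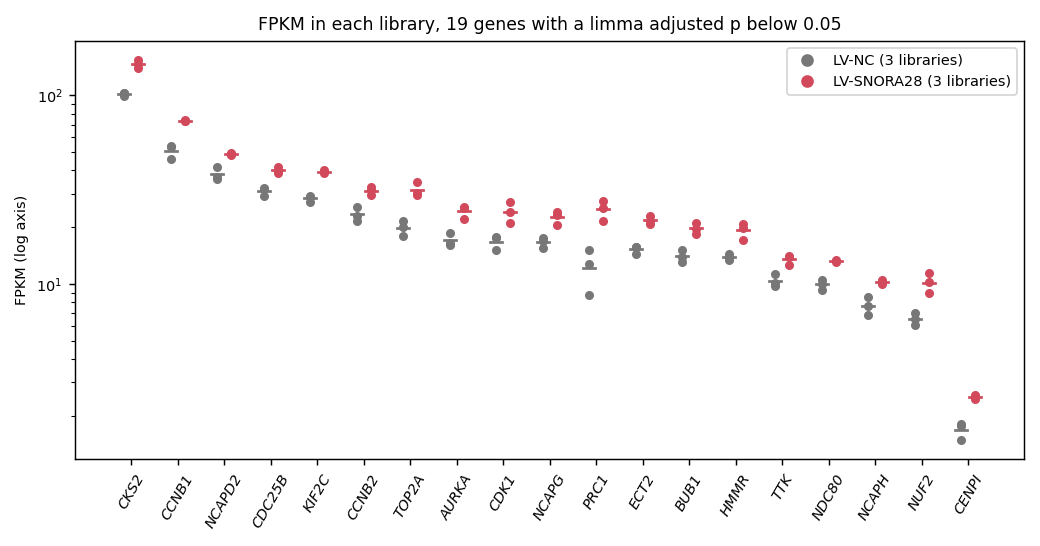
FPKM (y axis, log scale) in each of the 6 libraries for the 19 genes with a limma adjusted p below 0.05, in order of mean level, with grey points for LV-NC, red points for LV-SNORA28 and short lines at the group means. In all 19 genes every red point lies above every grey point, and PRC1 has the widest grey spread, from 8.78 to 15.1 FPKM.

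Among the 11 spindle genes, 3 rose (PRC1, KIF2C and HMMR), 0 fell and 8 did not pass the test. All LV-SNORA28 values lay above all LV-NC values in 10 of the 11 (90.9%), against 27.0% of all genes tested. PRC1 (ENSG00000198901, chr15:90966040-90995629), which bundles the antiparallel microtubules of the midzone, had the largest fold change of the 54 genes, at 12.8, 8.78 and 15.1 FPKM for LV-NC against 21.7, 25.3 and 27.5 FPKM for LV-SNORA28. PRC1 rose by 0.99 ± 0.19 (SE) on the log2 scale at a limma adjusted p of 0.0292, and LV-NC replicate 2 was its lowest library. KIF2C, the kinesin that takes microtubules apart at centromeres, was at 27.3, 28.9 and 29.2 FPKM for LV-NC against 38.8, 40.1 and 39.5 FPKM for LV-SNORA28. It had the smallest swing between libraries of the 54 genes, and its log2 fold change of 0.46 ± 0.055 (SE) had a limma adjusted p of 0.00901. HMMR, which helps to organise spindle poles, was at 14.4, 13.9 and 13.4 FPKM for LV-NC against 17.1, 19.9 and 20.7 FPKM for LV-SNORA28, a log2 fold change of 0.44 ± 0.084 (SE) at a limma adjusted p of 0.0293.

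The ratio of KIF2C to KIF20A, a kinesin of cytokinesis, was 1.21 ± 0.0225 (SD, n = 3) for LV-NC against 1.55 ± 0.0508 (SD, n = 3) for LV-SNORA28, without overlap (exact permutation p 0.1, adjusted over the 6 ratios 0.2). The other spindle kinesins KIF18A, KIF4A, KIF23, KIF11 and KIF20A had log2 fold changes between 0.11 and 0.28. KIF18A, which limits chromosome oscillation, was just outside the threshold, with a limma adjusted p of 0.0501, beside SMC2 at 0.0548. TPX2, the activator of AURKA on the spindle, was the most abundant of the 11, at 62.2, 70.9 and 72.6 FPKM for LV-NC against 78.0, 83.6 and 86.3 FPKM for LV-SNORA28. The log2 fold change of TPX2 was 0.27 ± 0.079 (SE) at a limma adjusted p of 0.0845, and its LV-NC replicate 1 was the lowest library. DLGAP5, a spindle protein that stabilises kinetochore fibres, had a log2 fold change of 0.25 at a limma adjusted p of 0.0904.

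NUSAP1, a microtubule-binding protein of the central spindle, had the second largest fold change and did not pass the test. It was at 11.4, 20.5 and 26.3 FPKM for LV-NC against 28.6, 34.8 and 34.7 FPKM for LV-SNORA28. No LV-NC value reached those of LV-SNORA28, while the LV-NC libraries spread over a wide range and the log2 fold change of 0.79 ± 0.28 (SE) had a limma adjusted p of 0.123. The annotation places a read-through gene, ENSG00000285920, on the same strand across NUSAP1, and 2938 of the 3608 exon bases of NUSAP1 belong to both. That gene was listed at 12.4, 7.17 and 0.13 FPKM for LV-NC against 0, 0.09 and 0 FPKM for LV-SNORA28, so it was high in the LV-NC libraries in which NUSAP1 was low. The sum of the pair was 23.8, 27.6 and 26.4 FPKM for LV-NC against 28.6, 34.9 and 34.7 FPKM for LV-SNORA28. On this sum the groups still did not overlap, at 25.9 ± 1.96 (SD, n = 3) and 32.7 ± 3.57 (SD, n = 3), but the ratio of the means was 1.26, where it was 1.69 for NUSAP1 alone.

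PRC1 shares 3181 of its 5523 exon bases with a second read-through gene on its strand, ENSG00000284946, which was listed at 4.68, 8.19 and 4.17 FPKM for LV-NC against 3.25, 4.03 and 2.76 FPKM for LV-SNORA28. It was highest in LV-NC replicate 2, where PRC1 was lowest. The sum of the pair was 17.4, 17.0 and 19.3 FPKM for LV-NC against 24.9, 29.3 and 30.3 FPKM for LV-SNORA28, and the ratio of the means was 1.57 against 2.03 for PRC1 alone. With the 2 sums (and that of BUB1B with its read-through gene, which was at or under 0.09 FPKM) in place of the single genes, the fit called 19 of the 54, the same 19 genes including PRC1. In that fit the log2 fold change of PRC1 was 0.62, at a limma adjusted p of 0.0147, and that of NUSAP1 was 0.32, at a limma adjusted p of 0.0952. How fragments of shared exons were divided between the genes was not tested.

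**Figure D4:**
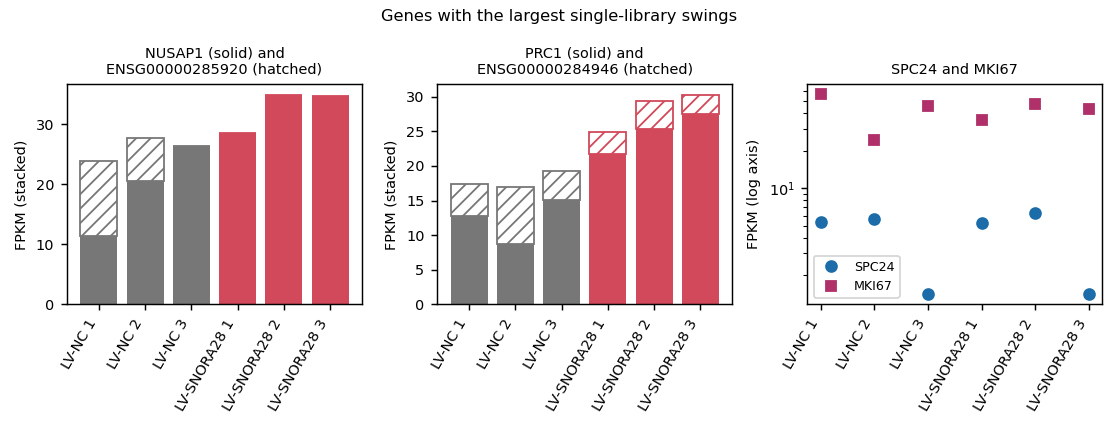
FPKM by library (x axis, LV-NC in grey and LV-SNORA28 in red for the bars). The first panel stacks NUSAP1 (solid) and its read-through gene (hatched), the second PRC1 and its read-through gene, and the third shows SPC24 (circles) and MKI67 (squares) on a log axis. The stacked totals are more even within LV-NC than the solid parts, and SPC24 drops to 1.42 and 1.40 FPKM in replicate 3 of either group.

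Of the cytokinesis genes, 1 of 2 rose. ECT2, the exchange factor that activates RhoA at the cleavage furrow, was at 15.7, 14.4 and 15.7 FPKM for LV-NC against 20.9, 21.6 and 22.8 FPKM for LV-SNORA28, a log2 fold change of 0.48 ± 0.066 (SE) at a limma adjusted p of 0.0114 and no overlap. ANLN (anillin), a scaffold of the contractile ring, was at 20.5, 18.3 and 21.7 FPKM for LV-NC against 21.6, 22.6 and 26.5 FPKM for LV-SNORA28. Its groups overlapped and the log2 fold change was 0.21 ± 0.099 (SE) at a limma adjusted p of 0.220.

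Of the 7 genes of chromosome structure, 4 rose (TOP2A, NCAPG, NCAPH and NCAPD2), 0 fell and 3 did not pass the test. TOP2A, the topoisomerase that untangles sister DNA, was at 20.0, 18.0 and 21.5 FPKM for LV-NC against 29.7, 30.5 and 34.9 FPKM for LV-SNORA28. TOP2A rose by 0.65 ± 0.092 (SE) on the log2 scale at a limma adjusted p of 0.0127. Condensin I, the complex that compacts mitotic chromosomes, has the non-SMC subunits NCAPD2, NCAPG and NCAPH, and all 3 rose. NCAPD2 was the most abundant, at 36.8, 35.9 and 41.5 FPKM for LV-NC against 49.4, 48.5 and 48.7 FPKM for LV-SNORA28, with a log2 fold change of 0.35 ± 0.069 (SE) at a limma adjusted p of 0.0305. NCAPG was at 15.5, 17.0 and 17.4 FPKM for LV-NC against 20.6, 24.1 and 23.3 FPKM for LV-SNORA28, with a log2 fold change of 0.42 ± 0.081 (SE) at a limma adjusted p of 0.0294. NCAPH was at 6.86, 7.64 and 8.52 FPKM for LV-NC against 9.97, 10.3 and 10.5 FPKM for LV-SNORA28, with a log2 fold change of 0.38 ± 0.084 (SE) at a limma adjusted p of 0.0432. None of the 3 subunits overlapped between groups. The SMC ATPases SMC2 and SMC4, shared with condensin II, had log2 fold changes of 0.27 and 0.26 with limma adjusted p of 0.0548 and 0.152, and their groups did not overlap.

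MKI67, which encodes Ki-67, a proliferation marker that coats mitotic chromosomes, was measured at 56.5, 24.5 and 45.2 FPKM for LV-NC against 35.5, 47.7 and 43.2 FPKM for LV-SNORA28. LV-NC replicate 1 was its highest library and LV-NC replicate 2 its lowest, with all 3 LV-SNORA28 values between them. MKI67 differed by 0.07 ± 0.29 (SE) on the log2 scale at a limma adjusted p of 0.901, and with 1 library left out it ran from -0.27 (without LV-NC replicate 2) to 0.32 (without LV-NC replicate 1). The ratio of TOP2A to MKI67 overlapped between the groups, at 0.521 ± 0.194 (SD, n = 3) and 0.761 ± 0.106 (SD, n = 3), with an exact permutation p of 0.2. No difference of MKI67 was detectable at this spread.

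How far 1 library stood from the other 2 of its group was then compared across the 54 genes, as the largest deviation on the log2(FPKM + 1) scale, here called the swing. The median swing was 0.22 over the 54 genes and 0.24 over all genes tested, and 4 of the 54 (7.41%) swung by more than 0.5, against 15.9% of all genes tested. The 4 were SPC24 in LV-SNORA28 replicate 3 (-1.49, beside -1.42 in LV-NC replicate 3), MKI67 in LV-NC replicate 2 (-1.01), NUSAP1 in LV-NC replicate 1 (-0.96) and PRC1 in LV-NC replicate 2 (-0.61). They were followed by SPC25 in LV-NC replicate 1 (-0.45) and CENPH in LV-SNORA28 replicate 1 (-0.44). For the other 48 genes no library deviated by more than 0.41.

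The deviations of LV-NC replicate 2 followed transcript length. MKI67, CENPF, KNL1 and CENPE have the 4 longest canonical transcripts of the 54 genes, at 12716, 10290, 9266 and 8541 nt, and all 4 were lowest in LV-NC replicate 2 among the LV-NC libraries, by -1.01, -0.40, -0.41 and -0.38. Across the 54 genes the deviation of that library had a Spearman rho of -0.45 with transcript length, and across 12053 genes tested it was -0.36. In LV-NC replicate 1 the values were 0.43 and 0.25, in LV-SNORA28 replicate 2 they were -0.48 and -0.24, and in LV-SNORA28 replicate 3 they were 0.31 and 0.25. Deviations also followed GC content in some libraries, with a Spearman rho of -0.48 and -0.26 in LV-SNORA28 replicate 3. In LV-SNORA28 replicate 1 the values with GC content were 0.28 and 0.27. In the other libraries rho with GC content ran from -0.04 to 0.25 over the 54 genes and from -0.09 to 0.07 over the 12053. Genes of 1 library are not independent, so these values describe the libraries only. With the length trend of each library removed, 10 of the 54 genes were called against a background of 4.32%, and the median log2 fold change was 0.18.

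**Figure D5:**
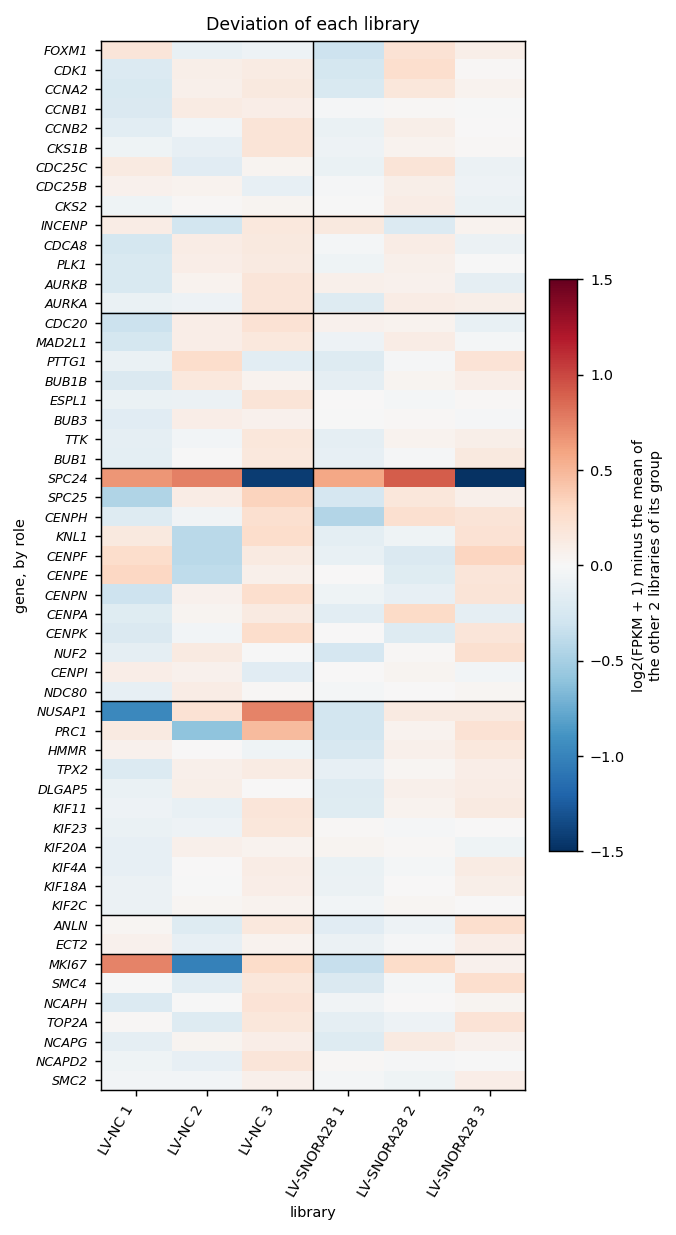
Deviation of log2(FPKM + 1) in each library (columns) from the mean of the other 2 libraries of its group, for the 54 genes (rows, grouped by role), in blue for lower and red for higher. SPC24, MKI67, NUSAP1 and PRC1 hold the darkest cells, up to a size of 1.49, and most cells of LV-NC 1 and LV-SNORA28 1 are blue while most of LV-NC 3 are red.

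Of the 19 genes that rose, CKS2, KIF2C and TOP2A had an adjusted p below 0.05 in limma under the settings used here and under all 16 alternatives, including each library left out. ECT2 passed in all but the fit without LV-SNORA28 replicate 2, where its adjusted p was 0.0518. CCNB1, of the fits that leave out 1 library, lost the call without LV-SNORA28 replicate 2 (0.0582) and without LV-SNORA28 replicate 3 (0.0549). The other 14 each lost it in at least 4 of the 6 fits that leave out 1 library, with limma adjusted p of at most 0.142, and without LV-SNORA28 replicate 2 or replicate 3 none of these 14 passed. In the 6 fits the log2 fold changes of the 19 stayed between 0.305 and 1.15.

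Other genes of mitosis, 89 in all and none of them among the 54, were read for comparison, from a list of further kinetochore proteins, subunits and partners of the anaphase-promoting complex, mitotic regulators, cohesin and condensin II, and spindle and cytokinesis proteins. All 89 entered the fit, 14 (15.7%) rose, 0 fell, and the median log2 fold change was 0.22. By group, 3 of 25 kinetochore genes, 4 of 18 of the anaphase-promoting complex, 3 of 19 regulators, 2 of 12 of cohesin and condensin II and 2 of 15 spindle and cytokinesis genes rose. The count for the 89 genes was 5 (5.62%, background 3.73%) under quantile normalization and 4 (4.49%, background 3.00%) with the GC trend removed. With 1 library left out it ran from 0 to 5. It was 2 (2.25%) without LV-NC replicate 1 and 2 without LV-NC replicate 2, against backgrounds of 4.08% and 3.09%. It was 5 (5.62%) without LV-NC replicate 3 and 5 without LV-SNORA28 replicate 1, against 2.70% and 2.78%. It was 0 without LV-SNORA28 replicate 2 (background 1.56%) and 0 without LV-SNORA28 replicate 3 (1.77%). In these last fits limma gave 25 (28.1%) and 28 (31.5%) of the 89 at an unadjusted p below 0.05 in either direction. Over all genes tested the shares were 21.7% and 20.9%.

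TRIP13, an ATPase that recycles the checkpoint protein MAD2, had the largest change among those 14, at 7.78, 9.26 and 10.4 FPKM for LV-NC against 13.9, 14.3 and 14.0 FPKM for LV-SNORA28 (log2 fold change 0.58, limma adjusted p 0.0235). NCAPG2, a condensin II subunit, was at 7.77, 8.58 and 9.75 FPKM for LV-NC against 12.1, 14.0 and 14.2 FPKM for LV-SNORA28 (log2 fold change 0.58, limma adjusted p 0.0227). For MIS18A, which helps to load CENPA onto centromeres, the values were 6.74, 7.38 and 8.17 FPKM for LV-NC against 10.4, 11.5 and 12.1 FPKM for LV-SNORA28 (log2 fold change 0.55, limma adjusted p 0.0192). All 3 genes were higher in every LV-SNORA28 library than in any LV-NC library. NEK2, a centrosomal kinase, was at 12.4, 12.3 and 12.95 FPKM for LV-NC against 16.1, 18.9 and 19.1 FPKM for LV-SNORA28 (log2 fold change 0.48, limma adjusted p 0.0188). CDC27, a core subunit of the anaphase-promoting complex, was at 13.2, 11.3 and 14.6 FPKM for LV-NC against 16.9, 17.8 and 20.2 FPKM for LV-SNORA28 (log2 fold change 0.47, limma adjusted p 0.0478).

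Of 48 DNA replication genes, which act in S phase, 4 (8.33%) rose, 0 fell and the median log2 fold change was 0.17. The 4 were MCM6, RFC5, PRIM1 and GINS4. Side by side, the share of genes that rose was 35.2% of the 54 mitosis and kinetochore genes, 15.7% of the 89 other mitotic genes and 8.33% of the replication genes, against 6.81% of all genes tested. With 1 library left out, 1 to 3 of the replication genes rose (1 without LV-SNORA28 replicate 2 and 1 without LV-SNORA28 replicate 3), and in 5 of those 6 fits the share of the 89 other mitotic genes lay below that of the replication genes. Without a filter on low values it was 0% against 4.17%. The share of the 54 genes was the highest of the 3 in all 17 fits. The difference between these lists was not tested, and the lists were chosen with earlier results of these data known.

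Scaling moved the balance of calls over all genes. The calls over all genes divided into 822 higher and 254 lower as fitted, 451 and 375 under quantile normalization, 362 and 328 with the GC trend removed and 521 and 482 with the length trend removed. Quantile normalization left 13 of the 54 called higher, against a background of 3.73%, and 0 of the 54 lower. The median of the 54 genes minus the median of all genes was 0.19 as fitted, 0.19 under quantile normalization, 0.19 with scaling to the nuclear sum and 0.16 with the GC trend removed. Under the last 3 of these settings 50, 52 and 49 of the 54 fold changes lay above 0, against 49.7%, 62.8% and 49.1% of all genes.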

How the data were processed

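Poly(A) RNA of HCT116 cells was sequenced as stranded (dUTP) paired-end libraries. The authors deposited 1 table of FPKM per library, with Ensembl gene identifiers. The submitters' processing notes name cutadapt 1.9, HISAT2 2.2.1, StringTie 2.1.6, DESeq2, edgeR and hg38, without the role of each. FPKM carries no counts, so depth and counting error are unknown, and a change in abundant transcripts moves every other value.

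Symbols, exons and lengths came from GENCODE release 44, which may differ from the annotation used upstream. Of the 60612 identifiers, 60401 had a symbol. Values were taken as log2(FPKM + 1), which understates the change of low genes, and all genes whose mean reached 1 FPKM (12076) were fitted with limma 3.58.1 in R 4.3.3 (eBayes with trend), with Benjamini-Hochberg adjustment over all of them. Groups came from the sample titles. All tests were two-sided and all comparisons are LV-SNORA28 over LV-NC. The fit was tested on simulated data.

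The members and lists were chosen with earlier results of these data known. Values in every library were given for genes with an adjusted p below 0.05, for the most abundant gene of each role, for the 6 largest swings, and for CKS1B, CKS2, MKI67 and FOXM1. The 5 largest calls of the other mitotic genes were given likewise. Library values of CCNA2, CDC25C, AURKB, PLK1, CENPA, ESPL1 and BIRC5 were added after the values were seen. Alternatives were another trend, scaling, filter, pseudocount, a replicate block, GC or length trends removed, and each library left out. The length trend and the sums with read-through genes were chosen after seeing the data.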

Additional observations from a re-analysis of the deposited data

How the results depend on the processing

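The 19 calls among the 54 genes were 6 (11.1%) without a filter on low values, against a background of 0.93% of all genes called higher. They were 6 (11.1%, background 3.00%) with the GC trend removed and 10 (18.5%, background 4.32%) with the length trend removed. With 1 library left out they ran from 3 to 11, against the backgrounds given above. Over all genes the 1076 calls were 397 without a filter and 690 with the GC trend removed, and ran from 278 to 629 with 1 library left out. The 3 genes at the study's threshold were 4 with 0.1 added in place of 1 and 2 with the read-through sums. They were 2 under quantile normalization, 2 with the length trend removed and 1 with the GC trend removed, and ran from 1 to 4 with 1 library left out. The 14 calls of the other mitotic genes were 9 without a mean-variance trend (10.1%, background 6.24%) and 5 under quantile normalization (5.62%, background 3.73%). They were 6 with nuclear scaling (6.74%, background 5.09%), 4 with the GC trend removed (4.49%, background 3.00%) and 5 with the length trend removed (5.62%, background 4.32%). Without a filter they were 0 (background 0.93%), where limma gave 44 of the 89 at an unadjusted p below 0.05 (49.4%, against 14.5% of all genes in that fit). With 1 library left out they ran from 0 to 5. The 4 calls of the DNA replication genes were 2 (4.17%) in each of the fits just named with all libraries, against the same backgrounds. They ran from 1 to 3 with 1 library left out, and all these replication counts were made after the data were seen. The median log2 fold change of the 54 genes was 0.19 under quantile normalization, 0.16 with the GC trend removed and 0.18 with the length trend removed, above 0 in each. The GC and length corrections also centre each library. Other causes were not tested.

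Across all genes tested, the replicate numbers gave no clear pairing. Libraries of 1 number had deviations that correlated at -0.04, 0.09 and 0.0098 across genes, and not every library correlated best with its own number. The median deviation of the 54 genes was -0.10, 0.0070 and 0.14 in LV-NC replicates 1 to 3. In LV-SNORA28 replicates 1 to 3 it was -0.095, 0.041 and 0.074, so it rose with the replicate number in both groups. Nothing in the labels says whether libraries of 1 number belong together. With the replicate block 11 of the 54 genes (20.4%), 3 of the other mitotic genes (3.37%) and 4 of the replication genes (8.33%) were called, all higher. The background of genes called higher was 3.13%, and 510 of all genes were called in either direction. At an unadjusted p below 0.05, limma with the block gave 41 of the 54 (75.9%), against 29.1% of all genes in either direction. Without the block it gave 36 (66.7%), against 28.0%.

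Of the fold changes of single genes, 5 changed sign under at least 1 alternative. INCENP was -0.039 under quantile normalization and -0.056 with the length trend removed, and ran from -0.050 to 0.11 with 1 library left out. ESPL1 was -0.078 under quantile normalization, -0.011 with nuclear scaling, -0.031 with the GC trend removed and -0.087 with the length trend removed, and ran from -0.018 to 0.077 with 1 library left out. CENPK, at 0.19 as fitted, was -0.023 with the GC trend removed. SPC24 was -0.067, -0.029 and -0.063 under quantile normalization and with the GC or length trend removed, and ran from -0.44 (without LV-NC replicate 3) to 0.53 (without LV-SNORA28 replicate 3) with 1 library left out. MKI67 was -0.014 and -0.024 with the GC or length trend removed, and ran from -0.27 (without LV-NC replicate 2) to 0.32 (without LV-NC replicate 1) with 1 library left out. Of 857 alternative values for single genes, 711 kept their direction and their side of the threshold. Count models such as DESeq2 were not run, since the tables hold FPKM.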
